A study of Mus musculus with 7 samples.

Results

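The genes described here encode the core of mTORC1, the TSC brake on it, and the folliculin arm through which amino acids reach it: Mtor, Rptor, Mlst8, Tsc1, Tsc2, Rheb, Flcn, Fnip1, Akt1s1 and Rragc. They were chosen by name, and each was read through every probe set (a group of short array probes for 1 transcript) whose only gene symbol in the platform annotation was that gene's. Of the 10 listed genes, 7 had such probe sets, 12 in all among the 22626 non-control probe sets of the array, whose single symbols covered 12393 genes. Rptor, Fnip1 and Akt1s1 had none and are not analysed here.

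RNA was measured on 7 Affymetrix mouse arrays, 1 per sample, from LSK cells, the bone marrow fraction positive for Sca-1 and c-Kit and negative for lineage markers, in which haematopoietic stem cells and early progenitors are found. The Lkb1 KO group has 4 samples (numbers 4 to 7) from Lkb1 L/L, rosa26CreERT2 mice, in which both copies of Lkb1 are flanked by loxP sites and a Cre recombinase expressed from the Rosa26 locus becomes active under tamoxifen. The Lkb1 WT group has 3 samples (numbers 5 to 7) from Lkb1 L/L mice without Cre. All mice were C57BL/Ka-CD45.2:Thy-1.1. Both groups received tamoxifen for 5 days and were sorted 1 day after the last treatment. Tamoxifen and the floxed gene were therefore shared, while Cre and its activation were present in the KO mice only, and deletion was not limited to blood cells. Each sample held 15000 to 20000 cells, and labelling started from an amplification of about 10 ng RNA. Ages were not stated, and the labels number the samples without saying that each came from its own animal, so the spread behind each p-value may be technical.

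Lkb1 (gene Stk11) is a kinase that activates AMPK when cellular energy is low. As background, mTORC1 is the kinase complex that promotes protein, lipid and nucleotide synthesis, built around mTOR with its scaffold raptor and the small subunit mLST8, and PRAS40 (Akt1s1) holds it back. The GTPase Rheb switches it on at the lysosome, the TSC1-TSC2 complex switches Rheb off, and AMPK restrains the pathway by acting on TSC2 and raptor. Amino acids bring mTORC1 to the lysosome through the Rag GTPases, among them RagC (Rragc), and folliculin with its partner Fnip1 promotes the change of nucleotide on RagC that this needs. In blood, loss of Tsc1 is known to push haematopoietic stem cells out of quiescence. The question a comparison of these transcripts addresses is whether the pathway's own components differ in message level soon after loss of Lkb1. Activity of mTORC1 is set largely by protein modification and was not measured on these arrays.

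The promoters of 3 members are shown because the results turn on these genes: Flcn, the one member past the threshold of the test, Tsc2, the member with the largest difference in the other direction, and Rragc, the GTPase on which folliculin acts. Each line gives the 250 bases before the RefSeq start on the gene's own strand, 5′ to 3′, build GRCm38.p6, with motif matches in capitals.
Flcn, chr11:59810040-59810289, minus strand, capitals TGACGTCA (cAMP response element): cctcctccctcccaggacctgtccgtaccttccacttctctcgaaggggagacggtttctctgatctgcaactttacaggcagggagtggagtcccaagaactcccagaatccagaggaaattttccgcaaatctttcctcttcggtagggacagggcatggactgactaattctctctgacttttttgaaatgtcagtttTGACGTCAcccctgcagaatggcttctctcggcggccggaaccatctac
Tsc2, chr17:24632628-24632877, minus strand, capitals CCGGAAGT (ETS site): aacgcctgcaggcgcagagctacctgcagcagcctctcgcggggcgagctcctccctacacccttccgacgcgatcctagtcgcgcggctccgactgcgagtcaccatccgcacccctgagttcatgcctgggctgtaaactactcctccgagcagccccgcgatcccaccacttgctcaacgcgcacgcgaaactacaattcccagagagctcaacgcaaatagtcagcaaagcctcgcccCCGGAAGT
Rragc, chr4:123917183-123917432, plus strand, capitals CACGTG (E-box core): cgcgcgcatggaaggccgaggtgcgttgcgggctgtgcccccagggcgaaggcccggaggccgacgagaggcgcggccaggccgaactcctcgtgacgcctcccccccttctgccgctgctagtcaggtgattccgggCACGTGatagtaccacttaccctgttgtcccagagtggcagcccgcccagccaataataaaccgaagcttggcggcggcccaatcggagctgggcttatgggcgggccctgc

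All 10 listed genes had a promoter in the RefSeq table, and each window was searched on both strands for 3 motifs, CACGTG, TGACGTCA and CCGGAAGT. The Flcn window held TGACGTCA, with its first base at position -49 from the start, a motif found in 1.55% of 32851 promoter windows of that length. CACGTG, found in 6.02% of windows, stood in those of Rragc (position -112), Rheb (-96) and Fnip1 (-75). CCGGAAGT, found in 2.88% of windows, stood in those of Tsc2 (-8), Mtor (-237) and, on the other strand, Akt1s1 (-49). The windows of Rptor, Mlst8 and Tsc1 held none of the 3. These matches describe the letters of the windows and were not measured as binding.

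Values are signal intensities as deposited, in MAS5 units on a linear scale, and levels after quantile normalization of log2(signal + 16), which gives the 7 arrays one common distribution. Normalization mattered here because the arrays differed in brightness with genotype. The trimmed mean signal was 386 ± 30.6 in KO (SD, n = 4) and 296 ± 59.1 in WT (SD, n = 3), with every KO array above every WT array (two-sided exact permutation p = 0.0286, the smallest that 4 against 3 samples allow) and Lkb1 WT 7 the dimmest at 229. The ratio of 3′ over 5′ signal in the Actb control probe sets, a measure of how far amplified RNA extends, also moved with genotype, at 11.4 to 12.3 on KO arrays against 12.6 to 13.1 on WT arrays (exact permutation p = 0.0571). The same ratio in the Gapdh control probe sets did not, at 7.49 to 7.95 on KO arrays against 6.68 to 9.46 on WT arrays (exact permutation p = 0.6). Stk11 itself had signals of 162.5, 123.4, 91.2 and 74.1 in KO 4, 5, 6 and 7, against 187.3, 115.2 and 99.3 in WT 5, 6 and 7. Its normalized difference was -0.56 ± 0.19 log2 units (KO minus WT, SE; adjusted p = 0.117 by limma), the groups overlapped, and its other probe set read 3.4 to 57.9 units and lay on the opposite side, so these probe sets did not separate the genotypes and their position relative to the deleted exons is not known here. Of the 11 granulocyte marker genes with a probe set, 9 fell in KO, where 2.96% of all tested genes did. The median over the list was -1.55 log2 units, and the summed signal of all 11 was 10868 to 14240 on KO arrays, against 25349 to 33227 on WT arrays. The 2 that did not fall were Itgam, higher in KO with no overlap (0.40 log2 units, limma adjusted p = 0.0663), and Csf3r, with overlapping groups (0.05 log2 units, limma adjusted p = 0.848). Among 7 tested stem and progenitor markers 2 fell, Hlf by 0.84 and Kit by 0.43 log2 units, the groups did not overlap for 4, all lower in KO, and the median was -0.36 log2 units. Of all tested genes 12.7% were lower in KO with no overlap. The 8 stem and progenitor markers with a probe set, Mecom below the filter among them, were also summed as deposited. Those sums, in which KO arrays are brighter at large, were 10968 to 14133 units on KO arrays, against 9058.4 to 14338 on WT arrays. The marker Ly6a (Sca-1) had no probe set used here. None of the 6 monocyte markers tested passed the threshold, with a median of 0.08 log2 units. The 9 monocyte genes with a probe set summed to 4601 to 6406.5 deposited units on KO arrays, against 2354.5 to 3242.4 on WT arrays. Most of it was Csf1r, at 3890.4 to 5809.3 in KO, against 1904.5 to 2694.4 in WT (0.75 log2 units, limma adjusted p = 0.0822). Of 3 erythroid markers tested none passed, but all 3 had lower KO levels with no overlap, beside 12.7% of all tested genes (Car1 at -1.05, Klf1 at -0.46 and Epor at -0.23 log2 units). The other erythroid genes with a probe set, Slc4a1, Alas2 and Hba-a1, were below the filter and not tested. None of 5 megakaryocyte markers passed, with a median of -0.20 log2 units and 2 that did not overlap, both lower in KO, beside the same 12.7% of all tested genes. The B cell markers Cd79a and Pax5 were at or below background on all 7 arrays, but Cd79b read 348.6 to 448.5 units in KO, against 256.6 to 387.3 in WT, and Vpreb1 read 236.9 to 387.4 units in KO, against 168.6 to 322.7 in WT, and neither passed. The 5 T cell markers with a probe set were all below the filter, 2 of them (Cd3e and Cd3g) at or below background on all 7 arrays, and together they summed to 53.5 to 75.2 units in KO, against 34.3 to 74.4 in WT. In such bulk samples fewer cells of a type and less RNA per cell cannot be told apart.

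In the test across 8077 genes, each represented by its brightest probe set, 1 of the 7 members passed a Benjamini-Hochberg adjusted p of 0.05 in limma, namely Flcn, which fell. None rose, and the other 6 did not pass, while 4 of the 7 had an unadjusted p under 0.05, where 25.3% of all tested genes did. Over all genes 5.44% passed in either direction, 2.96% as lower and 2.48% as higher. The groups did not overlap for 4 members, 3 lower in KO (Flcn, Tsc1 and Rragc) and 1 higher (Tsc2), where 24.1% of all tested genes had groups that did not overlap (12.7% lower and 11.4% higher). The median difference of the 7 members was -0.08 log2 units, beside -0.02 over all tested genes. The members thus differed among themselves more than they shifted together, with the TSC partners Tsc1 and Tsc2 on opposite sides of 0 at this scaling, though both above 0 on the signals as deposited.

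**Figure D1:**
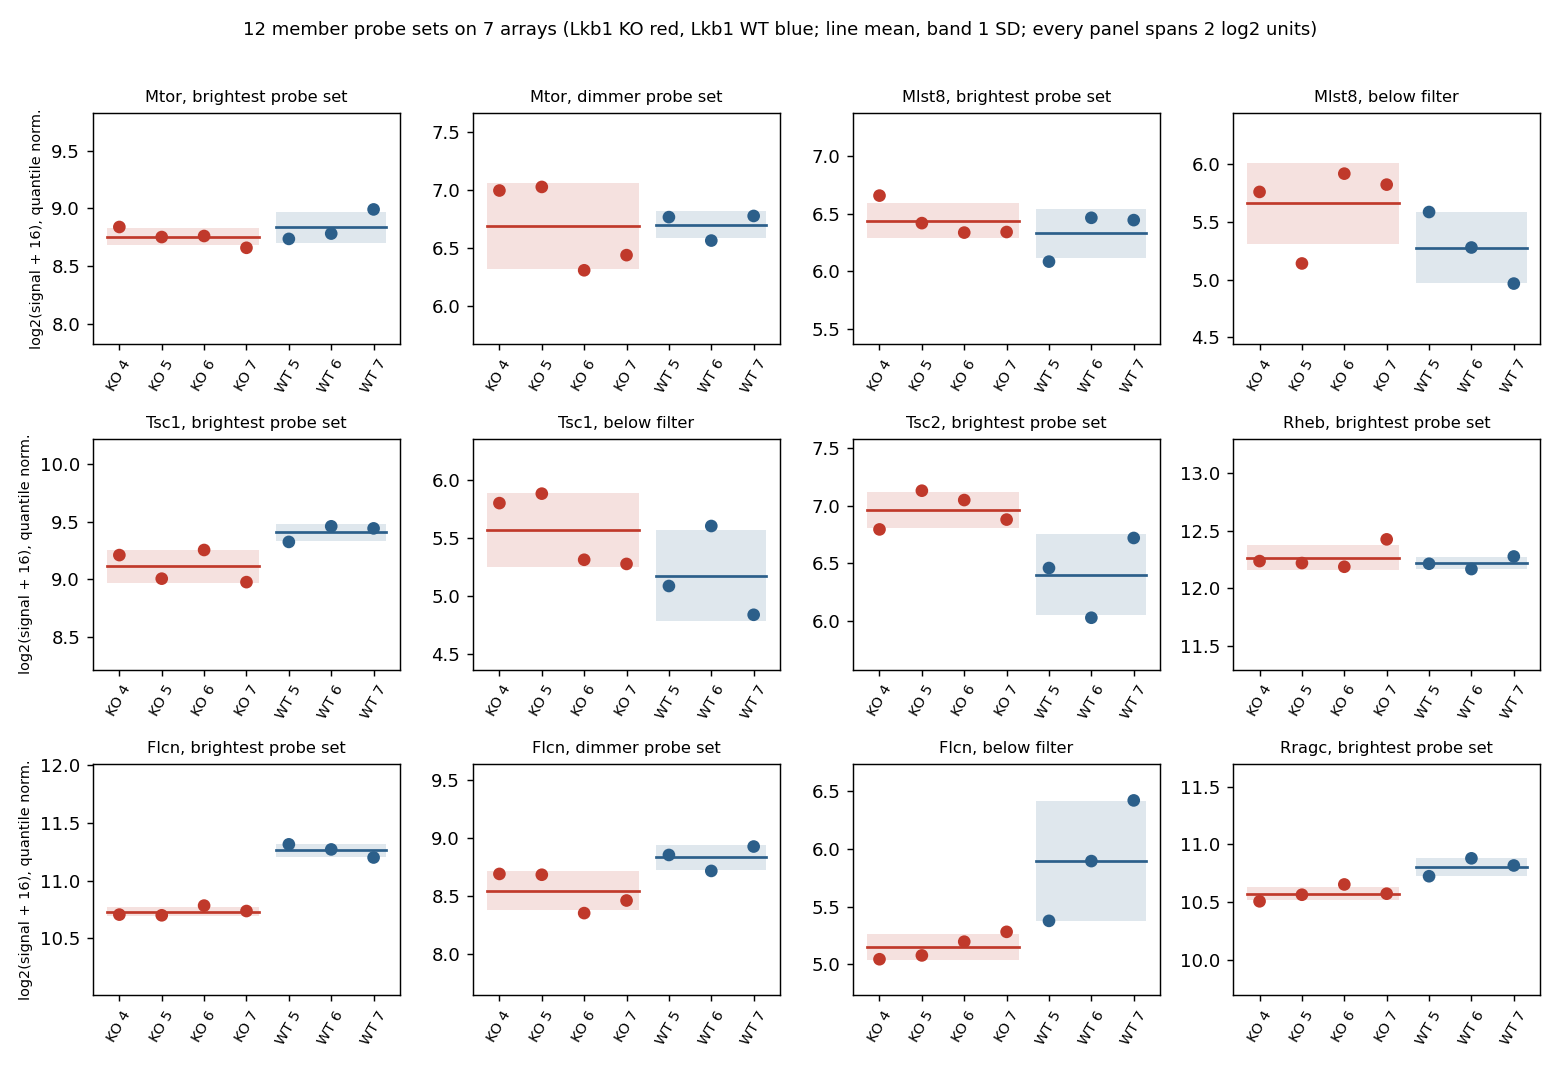
Normalized level, log2(signal + 16), of the 12 member probe sets on each array, with 4 Lkb1 KO arrays in red to the left of 3 Lkb1 WT arrays in blue; lines are group means, bands 1 SD, and every panel spans 2 log2 units. All KO points of the brightest Flcn probe set lie at 10.70 to 10.78, below all WT points at 11.20 to 11.31, and the KO points of Tsc2 at 6.79 to 7.13 lie above the WT points at 6.03 to 6.72.

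Flcn encodes folliculin, the GTPase-activating protein for RagC. Its brightest probe set, 1438167_x_at, had deposited signals of 2084.4, 1942.3, 1886.4 and 1797.7 in KO 4, 5, 6 and 7, against 2484.4, 2329.0 and 1574.4 in WT 5, 6 and 7. As deposited the groups overlapped, because the dim array WT 7 lay below every KO array. After normalization the levels were 10.73 ± 0.04 in KO (SD, n = 4) and 11.26 ± 0.06 in WT (SD, n = 3), with no overlap, and all WT arrays stood above all KO arrays. The difference was -0.53 ± 0.08 log2 units (SE; 95% interval -0.72 to -0.34), a KO to WT fold of 0.693 (adjusted p = 0.0211 by limma). Flcn kept its negative sign in each fit that left out 1 sample, at -0.55 to -0.50 log2 units. It passed without KO 4 (adjusted p = 0.0477), KO 5 (0.0478) and KO 6 (0.0415) and did not pass without KO 7 (0.0607), WT 5 (0.0530), WT 6 (0.0559) or WT 7 (0.0536). With the Actb ratio as a covariate the difference was -0.48 log2 units and did not pass (adjusted p = 0.511). That ratio did not overlap between the groups, and no gene of all those tested passed with it, so this fit cannot single out Flcn. In the same KO arrays 9 of 11 granulocyte markers fell, as did Hlf and Kit, and their part in the Flcn difference was not tested.

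After normalization the other Flcn probe sets lay on the same side. On the signals as deposited the brightest was at -0.12, the second at 0.12 and the third at -0.54 log2 units (KO minus WT). The second, 1423663_at, read 505.9, 459.9, 327.4 and 354.9 signal units in KO 4, 5, 6 and 7, against 450.6, 366.5 and 310.9 in WT 5, 6 and 7. Its normalized levels did not overlap between the groups, at 8.55 ± 0.17 in KO and 8.83 ± 0.11 in WT, a difference of -0.29 ± 0.12 log2 units (SE) that did not pass in the limma fit over 13575 probe sets (adjusted p = 0.193). In that same fit, where 4.08% of probe sets passed, the brightest Flcn probe set did (adjusted p = 0.0259). The third, 1456744_x_at, lay below the filter on dim probe sets, with 20.5, 18.6, 21.2 and 23.4 units in KO and 26.2, 41.6 and 47.6 units in WT, where background was 13.64 units. Its groups did not overlap before or after normalization, although the WT array with the dimmest overall signal, WT 7, had its highest reading (normalized difference -0.75 log2 units, exact permutation p = 0.0286). The suffix _x_at marks probe sets in which some probes can also match other transcripts, so the brightest and the third may carry signal that is not from Flcn, while the second is not marked in this way.

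Rragc encodes RagC, the GTPase on which folliculin acts. It read 1808.6, 1766.9, 1719.9 and 1581.8 signal units in KO 4, 5, 6 and 7, against 1626.5, 1718.4 and 1160.0 in WT 5, 6 and 7. The normalized levels were 10.57 ± 0.06 in KO and 10.81 ± 0.08 in WT, and the groups did not overlap. The difference of -0.23 ± 0.09 log2 units (SE; 95% interval -0.43 to -0.03) did not pass over all genes (limma adjusted p = 0.145). Its sign depended on the scaling, as described further on.

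Tsc1 and Tsc2 encode hamartin and tuberin, which act as one complex, with tuberin carrying the GTPase-activating domain for Rheb and hamartin stabilizing it. Tsc2 had 118.3, 139.3, 121.3 and 106.0 signal units in KO 4, 5, 6 and 7, against 74.5, 46.3 and 61.3 in WT 5, 6 and 7, so every KO array was above every WT array as deposited. The normalized level was 6.96 ± 0.15 in KO and 6.40 ± 0.35 in WT, a fold of 1.47. The difference of 0.56 ± 0.17 log2 units (SE; 95% interval 0.18 to 0.94) did not pass over all genes (limma adjusted p = 0.0852). It passed on the signals as deposited (0.85 log2 units, adjusted p = 0.00866), where the whole distribution was shifted upward in KO. The WT arrays spread more than the KO arrays, and WT 6 was the lowest; without it the difference was 0.37 log2 units, and over all fits that left out 1 sample it was 0.37 to 0.73 with no pass (adjusted p = 0.0696 to 0.179).

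Tsc1 read 731.8, 583.0, 632.8 and 510.6 signal units in KO 4, 5, 6 and 7, against 628.8, 621.3 and 442.3 in WT 5, 6 and 7. After normalization the level was 9.11 ± 0.14 in KO and 9.41 ± 0.07 in WT, with no overlap, and the difference of -0.30 ± 0.10 log2 units (SE; 95% interval -0.54 to -0.06) did not pass (limma adjusted p = 0.125). Its second probe set, 1422043_at, lay on the other side, at 48.5, 46.8, 24.4 and 23.3 units in KO and 18.3, 31.3 and 9.4 units in WT. That probe set was below the filter, exceeded background on 2 of the 3 WT arrays, and its overlapping groups differed by 0.39 log2 units (exact permutation p = 0.2). The intervals of the brightest Tsc1 and Tsc2 probe sets do not meet at this scaling, but they are not adjusted for the number of genes, neither gene passed, and on the signals as deposited both differences were above 0, with Tsc1 at 0.13 log2 units.

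Mtor encodes the kinase itself. Its brightest probe set, 1417592_at, read 562.4, 484.3, 440.2 and 404.8 signal units in KO 4, 5, 6 and 7, against 415.2, 381.5 and 325.1 in WT 5, 6 and 7. Normalized levels were 8.75 ± 0.07 in KO and 8.84 ± 0.14 in WT and overlapped, and the difference of -0.08 ± 0.10 log2 units (SE; 95% interval -0.31 to 0.14) did not pass (limma adjusted p = 0.637). The second Mtor probe set, 1436267_a_at, had 140.1, 127.3, 66.4 and 74.0 units in KO and 96.0, 72.1 and 64.2 units in WT, with KO 4 and 5 above the rest. Its difference was -0.01 log2 units (adjusted p = 0.982 in the limma fit over probe sets).

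Mlst8 encodes the small subunit that binds the mTOR kinase domain in both mTOR complexes. It read 105.1, 76.3, 68.1 and 68.5 signal units in KO 4, 5, 6 and 7, against 53.1, 66.4 and 48.8 in WT 5, 6 and 7. The deposited groups did not overlap, but the normalized ones did, at 6.44 ± 0.15 in KO and 6.33 ± 0.21 in WT (difference 0.11 ± 0.13 log2 units, 95% interval -0.19 to 0.41, limma adjusted p = 0.649). Its second probe set was below the filter, with 20.1 to 46.7 units in KO and 11.4 to 32.6 units in WT, and overlapped between the groups (0.38 log2 units, exact permutation p = 0.2).

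Rheb encodes the GTPase that activates mTORC1. Its signals were 5716.1, 5381.6, 4875.4 and 5821.2 units in KO 4, 5, 6 and 7, against 4717.8, 4434.4 and 3445.7 in WT 5, 6 and 7. As deposited every KO array was higher, and after normalization the groups overlapped at 12.27 ± 0.11 in KO and 12.22 ± 0.05 in WT. The difference of 0.05 ± 0.09 log2 units did not pass (limma adjusted p = 0.792), and its 95% interval of -0.17 to 0.26 holds neither the difference measured for Flcn nor that for Tsc2.

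The scaling between arrays sets the sign for several members. As deposited, the median of all tested genes was 0.34 log2 units higher in KO, and 6 of the 7 members lay above 0, with Flcn alone below it at -0.12 log2 units (limma adjusted p = 0.694). Relative to that median, 4 members lay below and 3 above: Flcn at -0.46, Tsc1 at -0.22, Rragc at -0.13 and Mtor at -0.02, against Tsc2 at 0.51, Mlst8 at 0.05 and Rheb at 0.04 log2 units. With each array centred on its median, Flcn was at -0.38 log2 units and just missed the threshold (adjusted p = 0.0505), as did Tsc2 at 0.58 (adjusted p = 0.0548). With cyclic loess Flcn was at -0.51 and passed (adjusted p = 0.0217). Flcn was the lowest member and Tsc2 the highest under each of these 4 scalings. Median centring moves all genes of an array by the same amount, so it keeps the order of the deposited signals by construction.

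**Figure D2:**
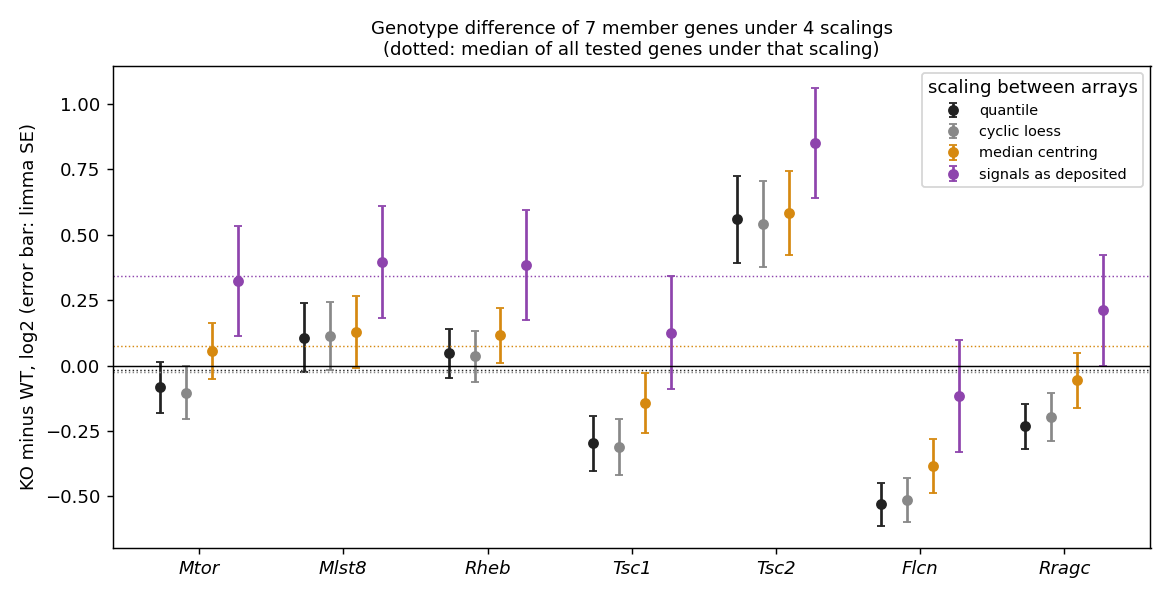
Difference between Lkb1 KO and Lkb1 WT (KO minus WT, log2, bars limma SE) of the 7 member genes under 4 scalings of the arrays, with a dotted line at the median of all tested genes under each. The points of the deposited signals lie above the others for every gene, as does their median of 0.34, and Flcn at -0.53 to -0.12 is the lowest gene and Tsc2 at 0.54 to 0.85 the highest under each scaling.

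A ratio of 2 signals from the same array does not depend on that array's brightness where both scale alike, so the members were also set against each other within arrays. These ratios were chosen after the values had been seen and are given as a description with no test; the size of a ratio between different probe sets has no meaning, only its change between arrays. Of 21 pairs of members, 10 had KO and WT ratios that did not overlap, and each of these contained Flcn or Tsc2, the members at the 2 ends of the range of differences. Over all pairs of tested genes 22.1% did not overlap in this way. None of the 10 pairs without these genes was separated. Flcn over Rragc was 1.15, 1.10, 1.10 and 1.14 in KO 4, 5, 6 and 7, against 1.53, 1.36 and 1.36 in WT 5, 6 and 7. Flcn over Mtor was 3.71, 4.01, 4.29 and 4.44 in KO, against 5.98, 6.10 and 4.84 in WT. Every ratio used the brightest probe set of each gene. The brightest Flcn probe set over each of the other 6 members was lower in every KO array than in any WT array. In the mean these ratios were 0.25 to 1.14 log2 units lower in KO. That probe set, 1438167_x_at, may carry signal from other transcripts, and ratios with the second Flcn probe set, 1423663_at, were not taken. Tsc2 over Tsc1, the subunits of one complex, was 0.162, 0.239, 0.192 and 0.208 in KO, against 0.118, 0.0745 and 0.139 in WT. The ratio of Tsc2 to 5 of the other 6 members was higher in every KO array than in any WT array, and to Mlst8 the groups overlapped.

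**Figure D3:**
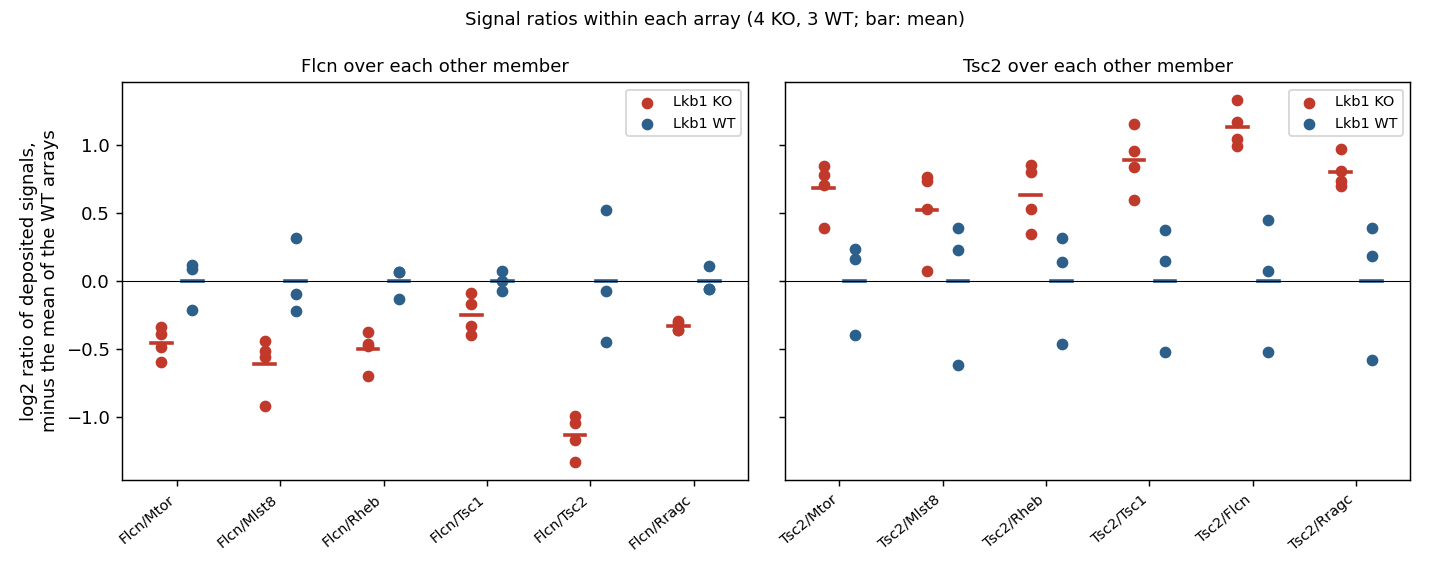
Log2 ratio of deposited signals within each array, minus the mean of the WT arrays, for Flcn (left panel) and Tsc2 (right panel) over each other member; red points are 4 Lkb1 KO arrays, blue points to their right 3 Lkb1 WT arrays, bars group means. Each gene is represented by its brightest probe set only. The KO and WT points do not overlap in any of the 6 Flcn ratios, with means 0.25 to 1.14 log2 units lower in KO, and in 5 of the 6 Tsc2 ratios.

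The rest of the pathway was read from 6 lists holding 97 genes, of which 74 had a single-symbol probe set and 68 entered the test. In KO 3 rose and 1 fell, 64 did not pass, and 20 had an unadjusted p under 0.05, where 25.3% of all tested genes did. The share past the threshold was 5.88%, beside 5.44% of all genes, and 17 genes (25%) had groups that did not overlap, beside 24.1%. Both shares are close to those of all genes, and the median difference was -0.03 log2 units.

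Among 14 substrates and effectors of mTORC1, Ulk1 fell and none rose, with a median of -0.04 log2 units. Ulk1 encodes the kinase that starts autophagy and is held inactive by mTORC1 phosphorylation. It had 957.3, 1000.5, 854.9 and 917.1 signal units in KO 4, 5, 6 and 7, against 1180.7, 1102.2 and 881.0 in WT 5, 6 and 7, and after normalization every KO level lay below every WT level. The difference was -0.61 ± 0.09 log2 units (SE, limma adjusted p = 0.0211), a fold of 0.657, and passed in 4 of the 7 fits that left out 1 sample, not without KO 7 (0.0544), WT 6 (0.0510) or WT 7 (0.0603). On the signals as deposited it was -0.17 log2 units and did not pass (adjusted p = 0.560). A dimmer Ulk1 probe set near background, with 1.5 to 34 units over the 7 arrays, lay on the other side at 0.43 log2 units and overlapped.

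Of 16 tested genes of amino acid input to the Rag GTPases, Sec13 rose and none fell, with a median of 0.02 log2 units. Sec13 encodes a protein shared by the GATOR2 complex, COPII vesicle coats and the nuclear pore. It read 653.6, 569.9, 441.4 and 493.9 signal units in KO 4, 5, 6 and 7, against 220.3, 227.5 and 235.5 in WT 5, 6 and 7. All KO arrays were above all WT arrays (0.78 ± 0.16 log2 units, SE, limma adjusted p = 0.0324), and it passed in 1 of the 7 fits that left out 1 sample, the one without WT 7 (0.0353); in the other 6 the adjusted p was 0.0564 to 0.0930.

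Of 16 tested transcripts known from other systems to rise with mTORC1 activity, Ldha and Sqle rose, none fell, and the median was 0.18 log2 units; 8 had an unadjusted p under 0.05, where 25.3% of all tested genes did, and 8 had groups that did not overlap (5 higher and 3 lower in KO), where 24.1% of all tested genes did. Ldha, the lactate dehydrogenase subunit of glycolytic cells, had 5175.8, 4514.8, 4330.9 and 4766.7 signal units in KO 4, 5, 6 and 7, against 2991.0, 2287.8 and 1758.9 in WT 5, 6 and 7. Every KO array was above every WT array (0.65 ± 0.11 log2 units, SE, limma adjusted p = 0.0220). Sqle, the squalene epoxidase of sterol synthesis, had 366.6, 236.5, 342.2 and 242.7 units in KO, against 167.2, 142.6 and 90.4 in WT, again with no overlap (0.73 ± 0.16 log2 units, SE, limma adjusted p = 0.0383). Ldha passed in 3 of the 7 fits that left out 1 sample, not without KO 4 (0.0504), KO 7 (0.0623), WT 6 (0.0604) or WT 7 (0.0640). Sqle passed only in the one without KO 5 (0.0478), with 0.0698 to 0.104 in the other 6. With the Actb ratio as a covariate no gene of all those tested passed. The 4 called pathway genes then had limma adjusted p values of 0.490 for Ldha, 0.498 for Ulk1, 0.533 for Sqle and 0.650 for Sec13. With no filter none of these 4 passed either, at 0.0523 to 0.0858. Other genes of the list lay on both sides: Shmt2, the mitochondrial serine hydroxymethyltransferase, was at 0.44 log2 units (limma adjusted p = 0.0611), while Asns, the asparagine synthetase, was at -0.51 (0.0653) and Atf4, the transcription factor that drives both in other systems, at -0.31 (0.104); these 3 did not pass and were named after their values were seen.

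No gene of the remaining 3 lists passed. Of 5 tested genes of mTORC2 and shared mTOR partners, with a median of 0.18 log2 units, Mapkap1 (mSIN1, a subunit of mTORC2) was at 0.26 ± 0.09 log2 units (SE, limma adjusted p = 0.125) with groups that did not overlap, and Prr5 (protor-1) at 0.36 ± 0.20 (0.301), which became 0.16 without WT 6 and 1.13 with the Actb ratio as a covariate. Of 14 tested genes that carry growth factor and energy signals to TSC and Rheb, with a median of -0.11, none had groups that did not overlap; the lowest p values were those of Stk11, given above, and Pik3r1, the regulatory subunit of PI3 kinase, at -0.31 ± 0.13 log2 units (0.189). Folliculin also controls the MiT/TFE transcription factors, which drive lysosomal genes, and of the 3 tested genes of that list Tfeb was at -0.52 ± 0.35 log2 units (0.395) and Tfec at -0.05 ± 0.14 (0.853). Tfeb read 14.6 signal units in KO 7, near background, against 62.6 to 91.0 on the other 3 KO arrays and 51.4 to 90.1 on the WT arrays, and without KO 7 its difference was -0.15 log2 units.

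**Figure D4:**
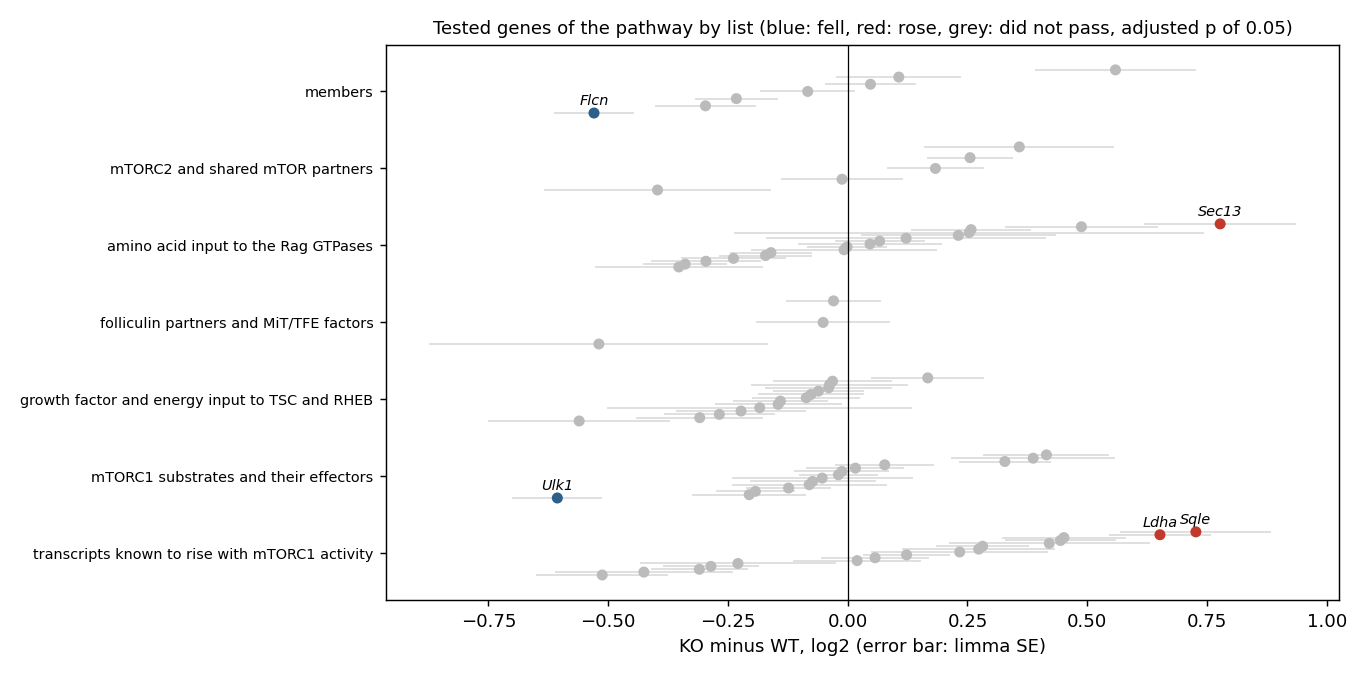
Difference between Lkb1 KO and Lkb1 WT (KO minus WT, log2, bars limma SE) of the tested genes, in 1 row for the 7 members and 1 for each of the 6 pathway lists; blue points fell, red points rose and grey points did not pass an adjusted p of 0.05. Flcn and Ulk1 at -0.53 and -0.61 are the blue points, and Sec13, Ldha and Sqle at 0.65 to 0.78 the red ones.

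The tested genes with the profile most like that of Flcn were found by the root mean square difference of mean-centred normalized log2 levels over the 7 arrays. The 5 nearest were Lrrfip2 (0.0465 log2 units), Zfpm1 (0.0599), Rffl (0.0606), Klhl26 (0.0636) and Gpr137b (0.0709), where the median over all tested genes was 0.317. Their own differences between KO and WT were -0.51 log2 units for Lrrfip2, -0.52 for Zfpm1, -0.48 for Rffl, -0.47 for Klhl26 and -0.51 for Gpr137b, all close to that of Flcn as the way they were picked requires. None of the other members was among these 5.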

How the data were processed

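The authors deposited linear signal intensities, made with MAS5 per the submitters' processing notes. Its version, settings and scaling target were not given in the sources used here. Of the 22690 probe sets 64 were controls. Background was the 95th percentile (13.64 units) of 27 control probe sets, on the assumption that the transcripts they match were not added.

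Intensities were analysed as log2(signal + 16), then quantile-normalized over non-control probe sets. The added 16 understates differences of dim genes. Probe sets above the 40th percentile of mean level entered limma 3.58.1 in R 4.3.3 (intercept and genotype, 5 residual degrees of freedom), by gene (brightest probe set) and by probe set, with Benjamini-Hochberg adjustment over all 8077 genes or 13575 probe sets. The fit was tested on simulated data. Single values were compared by two-sided exact permutation over 35 splits. The members and lists were chosen with earlier results of these data known. Genes named are the members, Stk11, list genes past the threshold or else the 2 of lowest p, and the 5 nearest to Flcn in profile; others are said to be named after their values were seen. Alternatives covered pseudocount, scaling, filter, variance prior, array weights, replicate block, Actb ratio, mean of probe sets and each sample left out.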

Additional observations from a re-analysis of the deposited data

How the results depend on the processing

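The number of arrays limits the precision of every value. The single member past the threshold was lost (0 members) with median centring, with no filter, with the replicate number as a block and with the Actb ratio as a covariate, where 2, 4, 3 and 2 of 7 members had an unadjusted p under 0.05 in limma; leaving out 1 sample gave 0 to 1. On the signals as deposited the one member past it was Tsc2, not Flcn. In the fit over probe sets the same 4 settings gave 0, with 2, 5, 4 and 2 member probe sets at an unadjusted p under 0.05, and leaving out 1 sample gave 0 to 0. The 4 pathway genes past the threshold became 7 with a pseudocount of 64, 15 as deposited, 10 with median centring, 9 with the 60th percentile filter, 12 with a trended robust prior, and 0 with no filter, the replicate block or the Actb ratio (18, 14 and 9 at an unadjusted p under 0.05); leaving out 1 sample gave 0 to 3. Over all genes 439 passed, 45.6% of them higher, against 1415 as deposited (97% higher), 711 with median centring (76.7% higher), 700 with a pseudocount of 64, 715 with the 60th percentile filter, 915 with a trended robust prior, 74 with no filter, 1 with the block and 0 with the Actb ratio (713 at an unadjusted p under 0.05). Leaving out 1 sample left 141 (KO 4), 136 (KO 5), 195 (KO 6), 45 (KO 7), 98 (WT 5), 92 (WT 6) and 61 (WT 7). Fewer samples or more genes tested account for part of this by construction; otherwise the cause was not tested. The gap in trimmed mean signal was 57.4 to 113 units (KO minus WT) without 1 sample, where fewer splits cannot reach a p of 0.05. Signs turned as deposited for Mtor (0.32), Rragc (0.21), Tsc1 (0.13), Tfec (0.28), Pik3r1 (0.061), the second Mtor probe set (0.30) and the second of Flcn (0.12), all KO minus WT in log2 units. They turned with median centring for Mtor (0.055), Tfec (0.00988) and the second Mtor probe set (0.027), and with the Actb ratio for Mlst8 (-0.21), Rheb (-0.045), Tfeb (0.089) and Pik3r1 (0.046). The second Mtor probe set also turned with a pseudocount of 64 (4.24e-06) and with array weights (0.00935). Leaving out 1 sample gave -0.12 to 0.12 for that probe set, turned without KO 6, KO 7, WT 5 or WT 7; -0.14 to 0.038 for Tfec, turned without KO 6 or WT 5; -0.00415 to 0.075 for Rheb, turned without KO 7; and -0.016 to 0.18 for Mlst8, turned without WT 5. The replicate numbers 5, 6 and 7 occur in both groups. Same-numbered samples correlated by 0.029, 0.099 and 0.051 in their deviations from the group means. Whether they share more than a number was not tested, and the labels do not say. With the number as a replicate block Flcn was at -0.52 log2 units (adjusted p = 0.118 by limma). KO 5, 6 and 7 each correlated best with the WT sample of their own number, while WT 5 correlated best with KO 4.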
